A study of Mus musculus with 9 samples.

Results

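The mRNAs that hold a mouse oocyte in meiotic arrest, drive its maturation and stop it at metaphase II were followed through NMN-supplemented, aged and young eggs. The 48 genes were chosen by function, with earlier results of these data known. Their list of symbols covers prophase arrest, maturation-promoting factor (MPF, the kinase CDK1 with cyclin B), cytostatic factor and the anaphase-promoting complex (APC). All 48 were matched by symbol among 22526 genes in the table, and 42 passed the filter on low values that left 9168 genes for testing. The oocytes were matured ICR oocytes at metaphase II, ICR being an outbred mouse strain, in 3 libraries of each group. The NMN group received nicotinamide mononucleotide, a precursor of the coenzyme NAD, and its labels give neither a dose nor the age of its mice. The aged and young groups are named as such without an age in days or weeks, and all 9 libraries were made by Smart-seq2, which primes cDNA from the poly(A) tail.

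A fully grown mouse oocyte stays in prophase because the constitutively active receptor GPR3 stimulates adenylyl cyclase. The resulting cAMP keeps CDK1 inhibited through the kinases WEE2 and PKMYT1. When cAMP falls, CDC25 phosphatases activate CDK1, the Greatwall kinase MASTL restrains the phosphatase PP2A through ENSA and ARPP19, and the APC with CDC20 later destroys cyclin B and securin. The kinase MOS, acting through MAP kinase, and the APC inhibitor EMI2 (Fbxo43) then arrest the egg at metaphase II until fertilisation. Transcription is silent through these steps, so the messages are maternal stores whose translation is set largely by the length of their poly(A) tails.

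The low values put the depth of the libraries between 16.28 M and 19.25 M reads (M, mega), and 3 reads in a gene of 2 kb correspond to 0.0779 to 0.0921 FPKM, a floor that covers counting error only. FPKM are fragments per kilobase of transcript, relative to the library total, so levels of different genes share a unit. They can also depend on tail length, which was not measured, and on the transcript annotation, which is not given. A low FPKM is therefore not by itself a small store. The 15 oocyte markers, among them Gdf9, summed to between 12821 and 18984 FPKM in the 9 libraries, and 1 of the 14 tested, Zp3, was called in aged against young. Of 17 listed cumulus and granulosa genes in the table, the sum was 4.49 to 5.36 FPKM in NMN, 5.03 to 27.4 in aged and 7.90 to 9.18 FPKM in young libraries. The value of 27.4 FPKM belonged to aged replicate 2, where Ptx3, Inha, Fst, Tnfaip6 and Foxl2, listed at 0 in the other 8 libraries, were all above 0. Inhba (3.97 FPKM), Hsd3b1 (4.70 FPKM), Has2, Fshr, Star, Vcan and Col4a1 also had their highest value in that library. The remaining listed genes did not. Cyp19a1 had its lowest value in aged replicate 2, at 3.03 FPKM, close to 3.05 FPKM in NMN replicate 1. Its highest was in young replicate 2, at 6.21 FPKM, and Ptgs2 was also highest in young replicate 2. Nppc, Lhcgr and Cd44 were at 0 in aged replicate 2 and above 0 in at least 1 other library. The number of oocytes per library is not given, so a lower share of a message and a smaller store per oocyte cannot be told apart, and p-values measure the spread between libraries, which may be technical.

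The FPKM levels of the arrest and maturation genes spanned several orders of magnitude. Over the 9 libraries, 8 members averaged at least 100 FPKM, 16 lay between 10 and 100, 17 between 1 and 10 and 7 under 1 FPKM. Those of at least 100 FPKM were the cyclin Ccnb1, the CDK subunit Cks1b, the inhibitory kinase Wee2, Mos, its target kinase Map2k1, the APC inhibitors Fbxo43 and Fbxo5 and the APC coactivator Cdc20. Ccnb1 was at the 99.3 percentile of tested genes by mean level and Mos and Cdc20 both at the 98.5 percentile. The catalytic partner of cyclin B was at the other end. Cdk1 was at 0.699, 0.618 and 0.490 FPKM in NMN, 0.608, 1.10 and 0.900 in aged and 0.618, 0.571 and 0.284 FPKM in young libraries, and was not tested because it stayed below the filter. Ppp2ca, the catalytic subunit of PP2A, was also low at 0.505 to 1.70 FPKM, against 51.7 to 130 FPKM for its scaffold subunit Ppp2r1a.

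**Figure D1:**
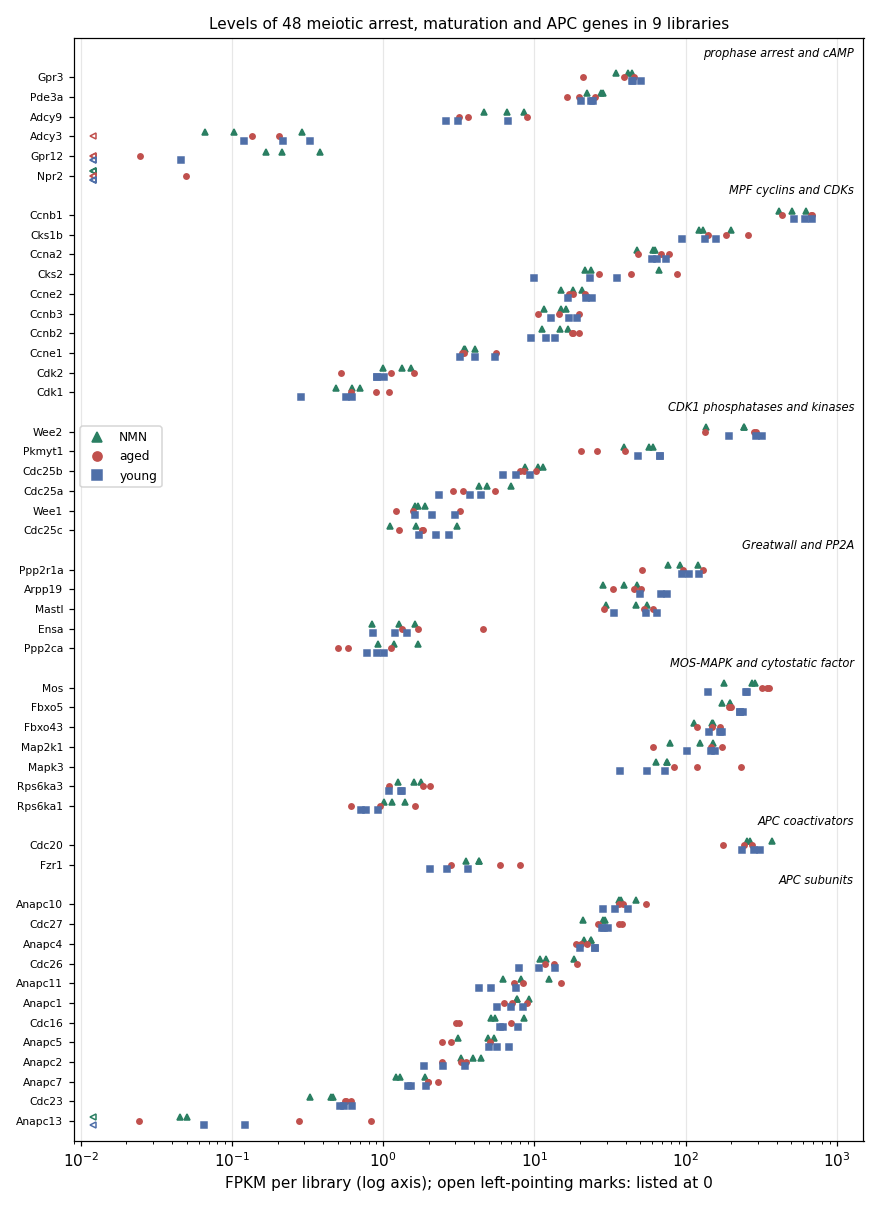
Each row is a gene, grouped by role, and each mark the FPKM of 1 library on a log axis, with 3 NMN (triangles), 3 aged (circles) and 3 young (squares) libraries and open marks at the left edge for values listed at 0. Differences between genes, from Npr2 at or near 0 to Ccnb1 at 417 to 681 FPKM, were far wider than those between groups.

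A cytoplasmic polyadenylation element, the site through which CPEB proteins lengthen the poly(A) tail during maturation, lay near the 3′ end of a minority of these messages, at a share close to that of all tested genes. The element (TTTTAT or TTTTAAT) and the polyadenylation hexamer (AATAAA or ATTAAA) were searched on the transcript strand only, in the last 150 bases of the longest annotated coding transcript, and the letters of the motifs may overlap. An element was found in 14 of 42 tested members (33.3%), against 2204 of 7967 tested genes with a coding transcript (27.7%), and an element with a hexamer in 13 of 42 (31.0%) against 24.25% of those genes. Sites are shown because the libraries were primed on the poly(A) tail, which such elements can regulate. They are those of the members of at least 100 FPKM that held an element, and of Arpp19 (mean 48.6 FPKM). The site of Ppp2r1a (mean 98.8 FPKM) is left out. The element, and the hexamer where it lies within the stretch, are in capitals.
Ccnb1: ttgctgTTTTAATttatacatct
Cks1b: ccttgATTAAAggaagttTTTTATaatct
Wee2: ttgtaAATAAAgaTTTTATcttat
Arpp19: cgAATAAAtggatctacctaatTTTTATtg
Fbxo43: atatatgtgtTTTTATactatacaca
Fbxo5: tgtgagttttTTTTATatctgtgaat
Cdc20: tgtTTTTATtttattttttctAATAAAgtt

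The sites are from the GENCODE M21 transcripts on GRCm38, a later build than the mm9 named for the deposited values, and each lies in the annotated 3′ UTR. They are at chr13:100778777-100778799 (Ccnb1, minus strand), chr3:89415475-89415503 (Cks1b, minus), chr6:40466783-40466806 (Wee2, plus), chr9:75060277-75060306 (Arpp19, plus), chr15:36150147-36150172 (Fbxo43, minus), chr10:5799228-5799253 (Fbxo5, minus) and chr4:118432914-118432943 (Cdc20, minus). In Wee2, Cks1b and Arpp19 the printed element follows the hexamer, and in Cdc20 it precedes it. The windows of Wee2 and Cks1b held 2 elements each, of which the one nearest the hexamer is printed. The letters of neither form were in the window of Mos, Mapk3, Pkmyt1 or Ccnb2. Tail length was not measured, and a match describes letters, not use of a site.

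The first comparison was aged against young oocytes, and none of the 42 tested members passed the test. The limma count of calls at an adjusted p under 0.05 was 0 of 42, where 2.12% of all 9168 genes were called. At an unadjusted p under 0.05 there were 7 members, Pkmyt1, Mapk3, Ccnb2, Mos, Fzr1, Anapc5 and Anapc11, against 18.2% of all genes. All aged libraries lay above, or all below, the young ones for 6 of 42, against 23.8% of all genes. These shares were near or under the background. They are a description only, since the members were listed with earlier results of these data known. The median log2 change of the 42 was -0.09, with 20 positive and 22 negative, against -0.03 over all tested genes, and without aged replicate 2 it was 0.12.

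**Figure D2:**
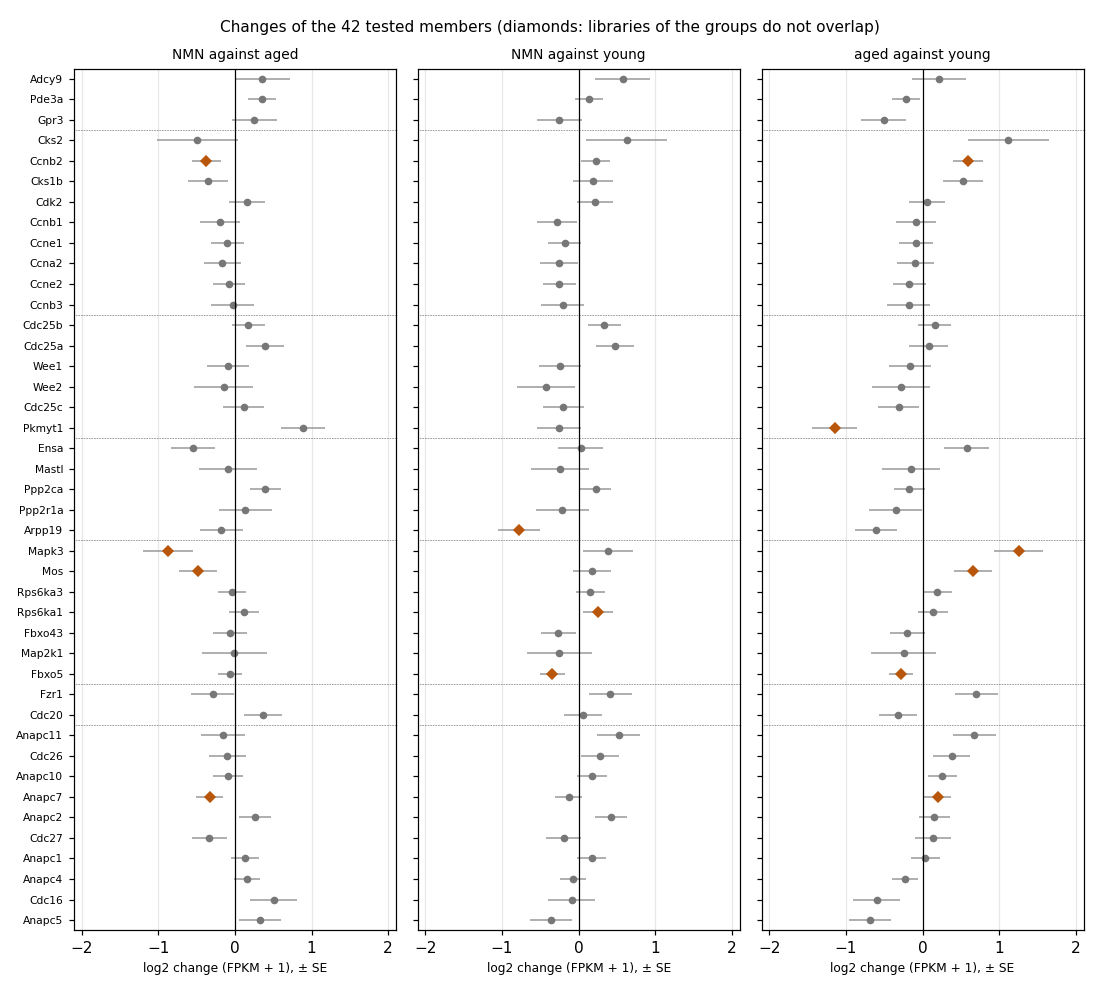
Log2 changes (± SE, on log2(FPKM + 1)) of the 42 tested members in the 3 comparisons, in blocks by role, with diamonds where the 3 libraries of one group all lie above or all below those of the other. No member passed the adjusted threshold, and Mapk3 (1.25) and Pkmyt1 (-1.15) lie farthest from 0 in aged against young.

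The inhibitory kinase Pkmyt1 had the smallest adjusted p of the list. It adds the brake phosphates to CDK1 at membranes. Pkmyt1 (ENSMUSG00000023908) was at 26.0, 20.4 and 39.4 FPKM in aged and 67.3, 48.6 and 67.3 FPKM in young libraries. Every aged library lay below every young one, and the means were 28.6 ± 9.79 and 61.1 ± 10.8 FPKM (SD, n = 3 each). The log2 change was -1.15 ± 0.29 SE (95% interval -1.79 to -0.51, limma adjusted p = 0.0751). Without aged replicate 2 it was -0.87 with an adjusted p of 0.122. Paqr4, which overlaps Pkmyt1 on the other strand, averaged 10.1 FPKM, and whether reads were assigned by strand is not stated.

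The other members that act on CDK1 phosphorylation stood closer together. Wee2, the oocyte form of the inhibitory kinase, was at 281, 135 and 294 FPKM in aged and 194, 293 and 320 FPKM in young libraries, a log2 change of -0.28 (95% interval -1.13 to 0.57). The low value was that of aged replicate 2, without which the change was 0.16, and the groups overlapped. Cdc25b, the phosphatase that starts maturation in the mouse, was at 10.2, 8.55 and 7.97 FPKM in aged and 7.51, 9.36 and 6.16 FPKM in young libraries, a change of 0.16 (-0.32 to 0.64). Wee1, Cdc25a and Cdc25c stayed between 1.10 and 7.02 FPKM over all 9 libraries.

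The MOS and MAP kinase arm held the largest positive change among the members. Mapk3, which encodes the MAP kinase ERK1, was at 83.8, 231 and 118 FPKM in aged and 73.0, 55.2 and 36.8 FPKM in young libraries. All 3 aged libraries were above the young ones, with aged replicate 2 far above the next highest. The log2 change was 1.25 ± 0.32 SE (95% interval 0.54 to 1.97, limma adjusted p = 0.0786). It crossed the threshold when aged replicate 1 was left out (1.53, adjusted p = 0.0496), the single setting of 17 in which any member was called, and was 0.92 without aged replicate 2 (adjusted p = 0.112).

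Mos, the kinase at the head of that arm, was at 317, 357 and 344 FPKM in aged and 253, 252 and 141 FPKM in young libraries. The groups did not overlap, and the change was 0.66 ± 0.25 SE (0.11 to 1.20, limma adjusted p = 0.195). Without young replicate 3, the lowest, it was 0.38 with an adjusted p of 0.556. Map2k1, the kinase between MOS and MAP kinase, was at 60.5 to 173 FPKM in aged and 102 to 156 FPKM in young libraries. The downstream RSK kinases Rps6ka1 and Rps6ka3 were low, at 0.610 to 2.03 FPKM in all libraries.

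Both APC inhibitors had lower means in aged oocytes without a call. Fbxo5 (EMI1), which restrains the APC in prophase, showed tight groups, with 201, 198 and 194 FPKM in aged and 230, 241 and 228 FPKM in young libraries. The groups did not overlap, but the log2 change was small, -0.28 (95% interval -0.63 to 0.07, limma adjusted p = 0.385). Fbxo43 (EMI2), which keeps the egg at metaphase II, was at 149, 119 and 169 FPKM in aged and 142, 173 and 168 FPKM in young libraries. Its groups overlapped, with a change of -0.20 (-0.69 to 0.30), or 0.012 without aged replicate 2.

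**Figure D3:**
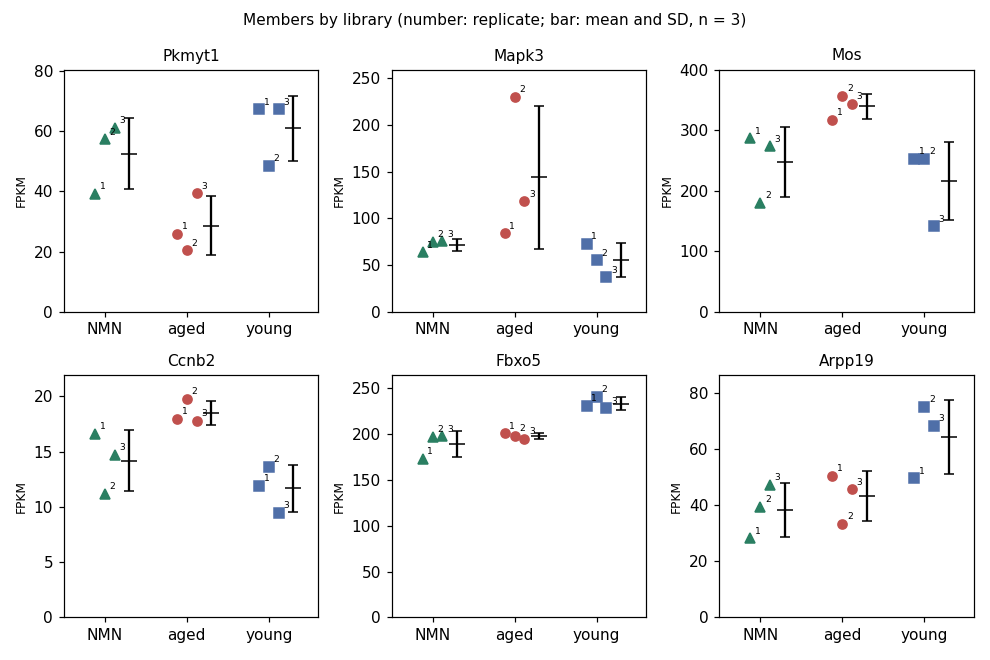
FPKM in each library (numbers are replicates) with the mean and SD of 3 beside them, for 6 members whose groups did not overlap in at least 1 comparison. Pkmyt1 was lowest and Mapk3, Mos and Ccnb2 highest in the aged group, Fbxo5 was lower in both the NMN and the aged group than in young, and Arpp19 was lower in NMN than in young.

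Among the cyclins and CDK subunits, cyclin B2 had a higher and cyclin B1 a similar mean in aged oocytes, without a call. Ccnb2 was at 17.9, 19.7 and 17.8 FPKM in aged and 11.9, 13.6 and 9.47 FPKM in young libraries, and every aged library was the higher. Its log2 change was 0.59 ± 0.19 SE (95% interval 0.17 to 1.01, limma adjusted p = 0.144). Ccnb1, the main mitotic cyclin of the egg, was at 681, 436 and 676 FPKM in aged and 520, 680 and 615 FPKM in young libraries, a change of -0.08 (-0.66 to 0.49), or 0.20 without aged replicate 2 and 0.011 without young replicate 2. The level of Ccnb1 was 32.7 ± 9.20 times that of Ccnb2 in aged and 52.9 ± 10.9 times in young libraries (SD, n = 3 each), with values of 22.1 to 38.1 and 43.8 to 65.0. In NMN libraries it was 25.1, 45.0 and 42.8 times, which reaches into both ranges. The ratio was not tested. Both cyclins have annotated pseudogenes, so their reads may be shared with copies.

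Ccna2, Ccnb3, Ccne1 and Ccne2 overlapped between all 3 groups. Cyclin B3, needed for anaphase of the first meiotic division in mice, was at 10.5 to 19.8 FPKM in aged and 12.8 to 19.1 FPKM in young libraries. The small CDK-binding subunits were more variable. Cks2 was at 26.6, 87.1 and 43.2 FPKM in aged and 35.2, 23.3 and 9.91 FPKM in young libraries, the widest spread of any tested member at 8.79-fold, and Cks1b was at 185, 259 and 141 FPKM in aged and 159, 135 and 94.9 FPKM in young libraries. In both genes aged replicate 2 was the highest and young replicate 3 the lowest of the 9 libraries. Cks1b has a similarly named protein-coding gene, Cks1brt, so its reads may be shared as well. Cdk2 stayed at 0.524 to 1.60 FPKM.

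Among the prophase arrest genes, Gpr3 and Pde3a had the highest FPKM. Gpr3, the receptor that sustains cAMP, was at 38.8, 20.9 and 45.5 FPKM in aged and 50.5, 45.1 and 43.9 FPKM in young libraries. The groups overlapped, with a log2 change of -0.51 (95% interval -1.15 to 0.14). Its neighbour Cd164l2 overlaps it on the other strand and averaged 54.1 FPKM, so reads of this pair may be mixed. Pde3a, the phosphodiesterase that removes cAMP when maturation starts, was at 16.4, 25.2 and 19.7 FPKM in aged and 24.5, 20.4 and 23.5 FPKM in young libraries, a change of -0.21 (-0.62 to 0.19). Of the cyclases, Adcy9 was at 2.61 to 8.98 and Adcy3 at no more than 0.326 FPKM. Npr2, the guanylyl cyclase that cumulus cells use to supply cGMP, was above 0 in aged replicate 1 alone, at 0.0495 FPKM.

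In the Greatwall pathway no group separated in aged against young. Mastl was at 60.8, 28.9 and 53.0 FPKM in aged and 33.4, 64.7 and 54.8 FPKM in young libraries, a change of -0.16 (95% interval -0.997 to 0.686), or 0.23 without aged replicate 2 and 0.045 without young replicate 2. Arpp19, the more abundant of the 2 PP2A inhibitors that MASTL activates, was at 50.6, 33.3 and 45.7 FPKM in aged and 49.6, 75.0 and 68.2 FPKM in young libraries. The groups overlapped through aged replicate 1 and young replicate 1, and the change was -0.61 (-1.22 to 0.01, limma adjusted p = 0.281). Ensa, its paralogue, was at 1.33, 4.59 and 1.71 FPKM in aged and 0.855 to 1.43 FPKM in young libraries. The level of Arpp19 was therefore 38.1, 7.26 and 26.8 times that of Ensa in aged and 34.7, 62.3 and 79.8 times in young libraries.

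The 2 APC coactivators differed in level far more than in change. Cdc20, which directs the APC to cyclin B and securin at anaphase, was at 241, 177 and 275 FPKM in aged and 311, 236 and 283 FPKM in young libraries, a change of -0.32 (95% interval -0.87 to 0.24). Fzr1 (CDH1), which acts with the APC in prophase, was at 2.82, 8.02 and 5.90 FPKM in aged and 3.62, 2.04 and 2.63 FPKM in young libraries, a change of 0.70 (0.08 to 1.32, limma adjusted p = 0.221). The level of Cdc20 was 85.7, 22.1 and 46.7 times that of Fzr1 in aged and 85.8, 116 and 108 times in young libraries. These ratios nearly touch, through aged replicate 1 and young replicate 1.

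The APC subunits had unequal FPKM levels although they form a single complex. Anapc10, which helps the complex bind substrates, Cdc27 and Anapc4 averaged highest, with 28.5 to 54.6, 21.1 to 38.02 and 18.7 to 25.3 FPKM. Cdc26, Anapc11 (the RING subunit that recruits the E2 enzyme), Anapc1 (the largest scaffold), Cdc16, Anapc5, Anapc2 (the cullin subunit) and Anapc7 followed, in that order of mean. Cdc23 and Anapc13 were under 1 FPKM in every library and were not tested. Kif20a, which overlaps Cdc23 on the other strand, averaged 69.9 FPKM.

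Summed over the 12 subunits, the level was 133, 159 and 139 FPKM in aged and 136, 128 and 121 FPKM in young libraries. Anapc5, a scaffold subunit, was at 2.46, 2.81 and 5.08 FPKM in aged and 5.001, 5.65 and 6.78 FPKM in young libraries (change -0.69, limma adjusted p = 0.221). Anapc11 was at 7.35, 15.0 and 8.36 FPKM in aged and 7.55, 5.18 and 4.31 FPKM in young libraries (0.68, adjusted p = 0.241). Both pairs of groups overlapped. Anapc7 did not overlap but differed little, with 1.97 to 2.29 FPKM in aged and 1.46 to 1.91 FPKM in young libraries.

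Among genes that work with the members, 3 did pass the test. Of 75 partner genes of the same pathways, 61 were tested and 3 were called in aged against young (limma), against 2.12% of all genes. They were 2 of 16 tested genes of CDK activation and 1 of 16 of the APC and egg activation, with 0 of 9 of cAMP and PKA, 0 of 8 PP2A subunits and 0 of 12 of MAPK and polyadenylation. The partner lists were chosen with earlier results of these data known. Their share of calls therefore cannot be set against that of all genes or of the members. No partner was called in NMN against aged or NMN against young, with 5 of 61 at an unadjusted p under 0.05 in each, where 11.4% and 8.22% of all genes had one. Bora, the cofactor with which Aurora A activates PLK1, was at 40.9, 55.0 and 66.7 FPKM in NMN, 29.2, 39.7 and 40.3 in aged and 82.7, 91.8 and 93.0 FPKM in young libraries. It fell in aged against young, with every NMN library between those groups. The log2 change was -1.33 ± 0.21 SE (limma adjusted p = 0.0182), and without young replicate 1, 2 or 3 the adjusted p was 0.0552, 0.0819 or 0.101. It was 0.0805 with no low-value filter.

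Ube2c, the E2 enzyme that starts ubiquitin chains for the APC, was at 76.6, 37.0 and 56.3 FPKM in NMN, 68.1, 109 and 78.1 in aged and 34.3, 33.1 and 25.3 FPKM in young libraries. It rose by 1.37 ± 0.25 SE on the log2 scale in aged against young (limma adjusted p = 0.0264). Its call was lost without aged replicate 3 or any 1 young replicate, with an adjusted p of up to 0.129, and with no low-value filter (0.0933). Ccnb1ip1, a ubiquitin ligase of meiotic crossover formation that was isolated as a cyclin B partner, was at 7.81, 5.43 and 4.65 FPKM in NMN, 8.46, 9.90 and 9.28 in aged and 3.65, 4.16 and 2.82 FPKM in young libraries. It rose by 1.14 ± 0.21 SE in aged against young (limma adjusted p = 0.0267). Leaving out aged replicate 1, aged replicate 3 or any 1 young replicate ended this call, with an adjusted p of up to 0.133, as did fitting with no low-value filter (0.0855). All 3 calls remained without aged replicate 2, with adjusted p from 0.0211 to 0.0375.

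**Figure D4:**
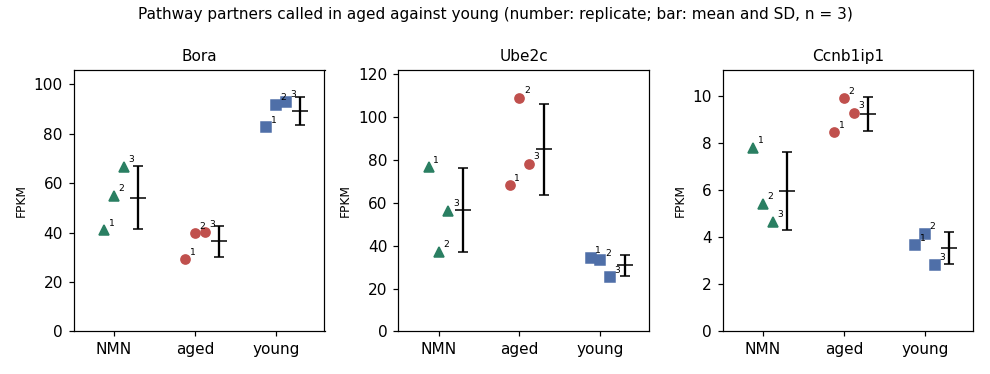
FPKM in each library (numbers are replicates), with mean and SD of 3, of the partner genes called in aged against young. Bora was lower in all aged libraries (29.2 to 40.3 FPKM) than in young ones (82.7 to 93.0 FPKM), Ube2c and Ccnb1ip1 were higher, and the NMN means lay between.

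The second comparison was NMN against aged oocytes. The age of the NMN mice is not given in the labels, so supplementation and age cannot be told apart in it. The count of member calls was again 0 of 42 (limma), where 0.218% of all genes were called, with 2 members, Pkmyt1 and Mapk3, at an unadjusted p under 0.05 (11.4% of all genes). The groups did not overlap for 4 of 42 members, Mapk3, Mos, Ccnb2 and Anapc7 (15.6% of all genes), each with the lower values in NMN. This comparison shares its aged libraries with the first, so the values are given side by side. The median log2 change of the members was -0.06, against 0.02 for all tested genes. It was 0.067 without NMN replicate 1, 0.036 without aged replicate 1 and 0.030 without aged replicate 3. Leaving out any other single library kept it negative, at -0.118 without aged replicate 2.

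Pkmyt1 was at 39.2, 57.3 and 61.2 FPKM in NMN and 26.0, 20.4 and 39.4 FPKM in aged libraries. The groups touched at 39.2 and 39.4 FPKM, and the log2 change was 0.89 (95% interval 0.24 to 1.53, limma adjusted p = 0.291). Mapk3 was at 63.8, 74.8 and 75.5 FPKM in NMN and 83.8, 231 and 118 FPKM in aged libraries. All NMN libraries were lower, and the change was -0.87 ± 0.32 SE (limma adjusted p = 0.363), or -0.56 without aged replicate 2. Mos was at 287, 180 and 273 FPKM in NMN and 317, 357 and 344 FPKM in aged libraries, and Ccnb2 at 16.6, 11.2 and 14.7 FPKM in NMN and 17.9, 19.7 and 17.8 FPKM in aged libraries. Their changes were -0.48 and -0.37 (adjusted p = 0.498 and 0.497).

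Ccnb1, Fbxo43, Cdc20 and Fzr1 overlapped between NMN and aged oocytes. Ccnb1 was at 417, 503 and 628 FPKM in NMN and 681, 436 and 676 FPKM in aged libraries (log2 change -0.20, 95% interval -0.77 to 0.38). Fbxo43 was at 113, 150 and 151 FPKM in NMN and 149, 119 and 169 FPKM in aged libraries (-0.07, -0.56 to 0.43), with a change of 0.095 without NMN replicate 1 and 0.058 without aged replicate 3. Cdc20 was at 268, 370 and 255 FPKM in NMN and 241, 177 and 275 FPKM in aged libraries (0.37, -0.18 to 0.93). Fzr1 was at 4.32, 4.28 and 3.53 FPKM in NMN and 2.82, 8.02 and 5.90 FPKM in aged libraries (-0.29, -0.91 to 0.33). The intervals reach beyond 0.3 on at least 1 side, so changes of that size are not excluded.

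Wee2, Mastl, Gpr3, Pde3a and Cdc25b overlapped as well. Wee2 was at 137, 243 and 242 FPKM in NMN and 281, 135 and 294 FPKM in aged libraries. Mastl was at 29.8, 55.3 and 46.7 FPKM in NMN and 60.8, 28.9 and 53.0 FPKM in aged libraries. In both genes NMN replicate 1 stood near the low value of aged replicate 2. Gpr3 was at 34.4, 41.5 and 44.4 FPKM in NMN and 38.8, 20.9 and 45.5 FPKM in aged libraries, Pde3a at 28.2, 27.3 and 22.4 FPKM in NMN and 16.4, 25.2 and 19.7 FPKM in aged libraries, and Cdc25b at 10.5, 11.4 and 8.60 FPKM in NMN and 10.2, 8.55 and 7.97 FPKM in aged libraries.

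A pair of low members, Gpr12 and Cdc23, stood apart in the NMN libraries but were outside the test. Gpr12, the second cAMP-raising receptor on the list, was at 0.379, 0.213 and 0.169 FPKM in NMN libraries. It was listed at 0, 0.0245 and 0 FPKM in aged and at 0, 0.0458 and 0 FPKM in young libraries, under the level of 3 reads. Cdc23 was at 0.325, 0.467 and 0.452 FPKM in NMN, 0.571, 0.608 and 0.556 in aged and 0.617, 0.551 and 0.519 FPKM in young libraries. Both were chosen for mention after their values were seen, and with no low-value filter 0 of the 48 members were called in any comparison.

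The third comparison, NMN against young oocytes, held 0 member calls of 42 (limma), where 0.0764% of all genes were called. A single member, Arpp19, had an unadjusted p under 0.05 (8.22% of all genes), and the groups did not overlap for 3, Arpp19, Fbxo5 and Rps6ka1 (16.6% of all genes). Arpp19 was at 28.2, 39.3 and 47.3 FPKM in NMN and 49.6, 75.0 and 68.2 FPKM in young libraries. Its log2 change was -0.78 ± 0.28 SE (95% interval -1.40 to -0.17, limma adjusted p = 0.484). With 1 library left out the Arpp19 change was -0.97 to -0.56, with a limma adjusted p of up to 0.999, reached without NMN replicate 1. With the replicate number as a block, the limma adjusted p was 0.592, though the labels tie that number to no animal or day. Fbxo5 was at 173, 197 and 197 FPKM in NMN and 230, 241 and 228 FPKM in young libraries (-0.34, adjusted p = 0.614). Rps6ka1 was at 1.40, 1.01 and 1.14 FPKM in NMN and 0.927, 0.770 and 0.708 FPKM in young libraries (0.25, adjusted p = 0.780).

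Across all comparisons, single libraries held many of the extreme values of these genes. Aged replicate 2 held the highest value of 15 and the lowest of 11 of the 42 tested members (61.9%), and the highest or lowest of 48.4% of all tested genes. Among others, it was the lowest library for Gpr3, Wee2, Mastl, Map2k1, Ppp2r1a and Cdc20, and the highest for Mapk3, Mos, Ccnb2, Cks1b, Cks2, Ensa, Fzr1, Anapc10 and Anapc11. NMN replicate 1 held the lowest value of 9 of the 42, among them Ccnb1, Ccna2, Fbxo43, Fbxo5 and Arpp19, and of 10.6% of all tested genes. Young replicate 3 held the lowest of 10 of the 42, among them Mos, Mapk3, Ccnb2, Cks1b and Cks2, and of 13.2% of all tested genes.

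The annotated features of the members at both ends of aged replicate 2 were also read. The element above was in 4 of the 15 members highest in that library (26.7%) and in 5 of the 11 lowest (45.5%). Over all tested genes the shares were 24.3% of those highest and 30.7% of those lowest in it. The longest coding transcripts had a median length of 3057 nt in those 15 and 2436 nt in those 11, against 2622 and 3203 nt over all genes highest and lowest in the library. The part of the cumulus markers or of these features in the member values was not tested.

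**Figure D5:**
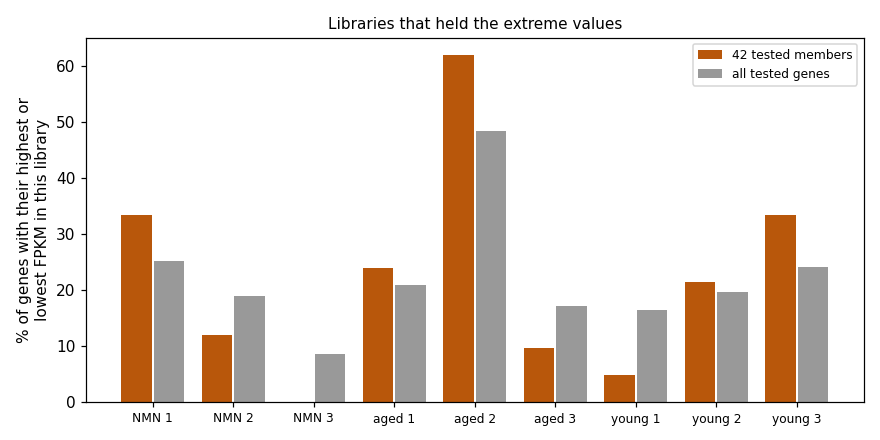
For each library, the percentage of the 42 tested members (left bars) and of all 9168 tested genes (right bars) that had their highest or lowest FPKM there. Aged replicate 2 reaches 61.9% and 48.4%, and NMN replicate 3 held no extreme value of a member.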

How the data were processed

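Smart-seq2 cDNA of metaphase II oocytes was sequenced in 3 libraries per group, per the labels. The authors deposited FPKM values, although the table is named a count matrix. For 2659 genes with a single transcript over 1500 nt, 96.2 to 97.8% of values under 20 reads were whole multiples of 1 step, within 0.02 reads, from which depth was estimated. Bowtie2 2.2.5, RSEM and the build mm9 are named in the submitters' processing notes, and the annotation is not given in the sources used here. Symbols came from GENCODE M21 (22487 identifiers matched).

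FPKM were divided by trimmed-mean factors (30% by ratio, 5% by level, times the column sum). A gene entered the test if 3 or more libraries held 1 FPKM or more, and the rest were left out. Testing was done with limma 3.58.1 (R 4.3.3) on log2(FPKM + 1), in a single fit of 3 group means with variance trend and robust moderation, and Benjamini-Hochberg adjustment over all tested genes. This scale understates changes of low genes. Printed levels are FPKM as deposited. The steps were tested on simulated data with independent normal spread, which held no outlying library such as aged replicate 2. The rule for named genes gave log2 changes to members called, or with an unadjusted p under 0.05 and no overlap, and values in every library to 12 core genes. Changes of other members were added after their values were seen, which makes 31 printed changes with the partners. Members and lists were chosen with earlier results of these data known. Deviations of same-numbered libraries from their group means correlated at 0.497, 0.119 and 0.142 between NMN and young (replicates 1, 2 and 3). The values were -0.338, -0.266 and 0.314 between aged and young. Between NMN and aged they were -0.372, -0.358 and 0.200.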

Additional observations from a re-analysis of the deposited data

How the results depend on the processing

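The count of members called was 0 in all 3 comparisons in 16 of the 17 alternatives run. For aged against young, leaving out 1 library gave 0 to 1 members, the 1 being Mapk3 without aged replicate 1. Of the 31 printed log2 changes, 26 kept their sign in all alternatives run. The other 5 turned only when 1 library was left out, with ranges in aged against young of -0.52 to 0.16 (Wee2), -0.34 to 0.012 (Fbxo43), -0.24 to 0.20 (Ccnb1) and -0.45 to 0.23 (Mastl), and of -0.30 to 0.095 for Fbxo43 in NMN against aged. Bora, Ube2c and Ccnb1ip1 lost their calls with no low-value filter (adjusted p = 0.0805, 0.0933 and 0.0855), where 22526 genes were tested; at a minimum of 10 FPKM Ccnb1ip1 was not tested. With the replicate block, Ube2c (0.0675) and Ccnb1ip1 (0.0584) lost theirs, and 0 members were called in any comparison. Over all genes, the 194 calls of aged against young became 28 with no filter, 99 at a minimum of 10 FPKM, 115 with only those groups fitted, 75 with the block and 24 to 218 without 1 library. The 20 of NMN against aged became 9, 4, 6 and 15 in those settings and 5 to 26 without 1 library. The 7 of NMN against young became 1, 1, 14 and 0, 3 with values as deposited, and 1 to 14 without 1 library. With 3 libraries a group and low levels, members under 1 FPKM could differ without a call.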
